A study of Gossypium hirsutum with 18 samples.

Results

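The 4 cotton genes named here as GhDAD1-LIKE were Gohir.A03G005700, Gohir.A11G027800, Gohir.D03G166800 and Gohir.D08G185200, out of 54508 genes in the table of root transcripts. They were taken by identifier from the study's scheme of jasmonic acid synthesis, where they stand at the first step, and no expression threshold was applied to pick them here. That the copies move in different directions after nematode infestation was already known when they were picked, so opposite signs among them are described and not tested. Copies on A chromosomes and copies on D chromosomes belong to the subgenomes of the allotetraploid Upland cotton, Gossypium hirsutum. The names rest on the study's assignment, since the table pairs no identifier with a gene name or a sequence.

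Jasmonic acid is a lipid-derived hormone of wounding and defence responses in plants. Its synthesis starts in plastids, where lipases free linolenic acid from membrane lipids, and lipoxygenase, allene oxide synthase and allene oxide cyclase then convert that fatty acid. In Arabidopsis, DEFECTIVE IN ANTHER DEHISCENCE 1 (DAD1) is a plastid phospholipase A1 that supplies linolenic acid for jasmonate synthesis in flowers, and DAD1-LIKE proteins are related lipases. Which lipids the cotton proteins cleave was not measured in these data. The southern root-knot nematode, Meloidogyne incognita, settles in roots and turns vascular cells into giant cells from which it feeds, so that galls form.

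Roots came from 3 genotypes, the susceptible Acala SJ2, the moderately resistant WMJJ and the resistant Acala NemX, each as uninfested controls (ctl) and as plants infested with the nematode (rkn). Seedlings received 5000 second-stage juveniles each at 12 days of age, controls received water, and roots of both were collected from plants 23 days old. Each of the 6 groups held 3 libraries described as biological replicates, 18 in all, and the sources used here do not say whether a library came from 1 plant or from a pool. By the study's methods, 1/3 of the samples were made with another kit, and sequencing on MiSeq and on HiSeq instruments is described. The sources used here do not say which libraries these were, and the part of kit and instrument in the results was not tested. Root identity was not checked against marker genes, because the table gives no gene names.

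Values are expression levels normalized by the authors, close to counts scaled to a common library total, and the totals of the 18 libraries lay between 852215 and 1096547. In each group 1 library stood apart, replicate 1 of NemX_rkn and replicate 3 of the others, which were also the libraries with the most genes above 0 in their groups. The deviations of these 6 libraries from their group means correlated at 0.193 to 0.442 with each other, and at -0.299 to -0.0723 with those of the other 12 libraries. Deviations within a group cancel each other, so the values below 0 follow in part from those above 0 and are not a separate sign. A model term for the 6 libraries kept every call given here, and calls that changed with the other 12 libraries alone, an alternative chosen after seeing the data, are given beside the results. Depth is not given in the table, but by the study's read numbers these 6 libraries were the deepest of their groups. The sources used here do not say whether they are those made with the other kit. In each library low values cluster at steps, and the smallest step, taken as the worth of about 1 read, lay between 0.0798 and 0.361, so values near 1 rest on a few reads. Levels are not corrected for gene length and are therefore compared within a gene, across groups. Roots were measured whole, so fewer cells of a type and less RNA per cell cannot be told apart. Transcripts of near-identical A and D copies can share reads in pseudo-alignment, and each value of a single copy is uncertain to that extent.

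The filter for testing used each gene's own mean, which is not a comparison between the copies. Over the 18 libraries the mean value was 27.5 for Gohir.A11G027800, 12.0 for Gohir.A03G005700, 6.73 for Gohir.D03G166800 and 0.914 for Gohir.D08G185200. The first 3 passed the filter, a mean of at least 1, and were among the 46813 genes tested with limma. Gohir.D08G185200 did not pass, and its values are described without a test. A gene was called when its Benjamini-Hochberg adjusted p was below 0.01 and its log2 fold change was above 1 in size, the fold change being a difference of group means of log2(value + 0.5), which understates the change of low genes. Groups of 3 libraries that do not overlap are a description. The share of tested genes so separated was computed only for uninfested NemX over SJ2 (19.5%) and uninfested WMJJ over SJ2 (20%), where it was not rare.

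**Figure D1:**
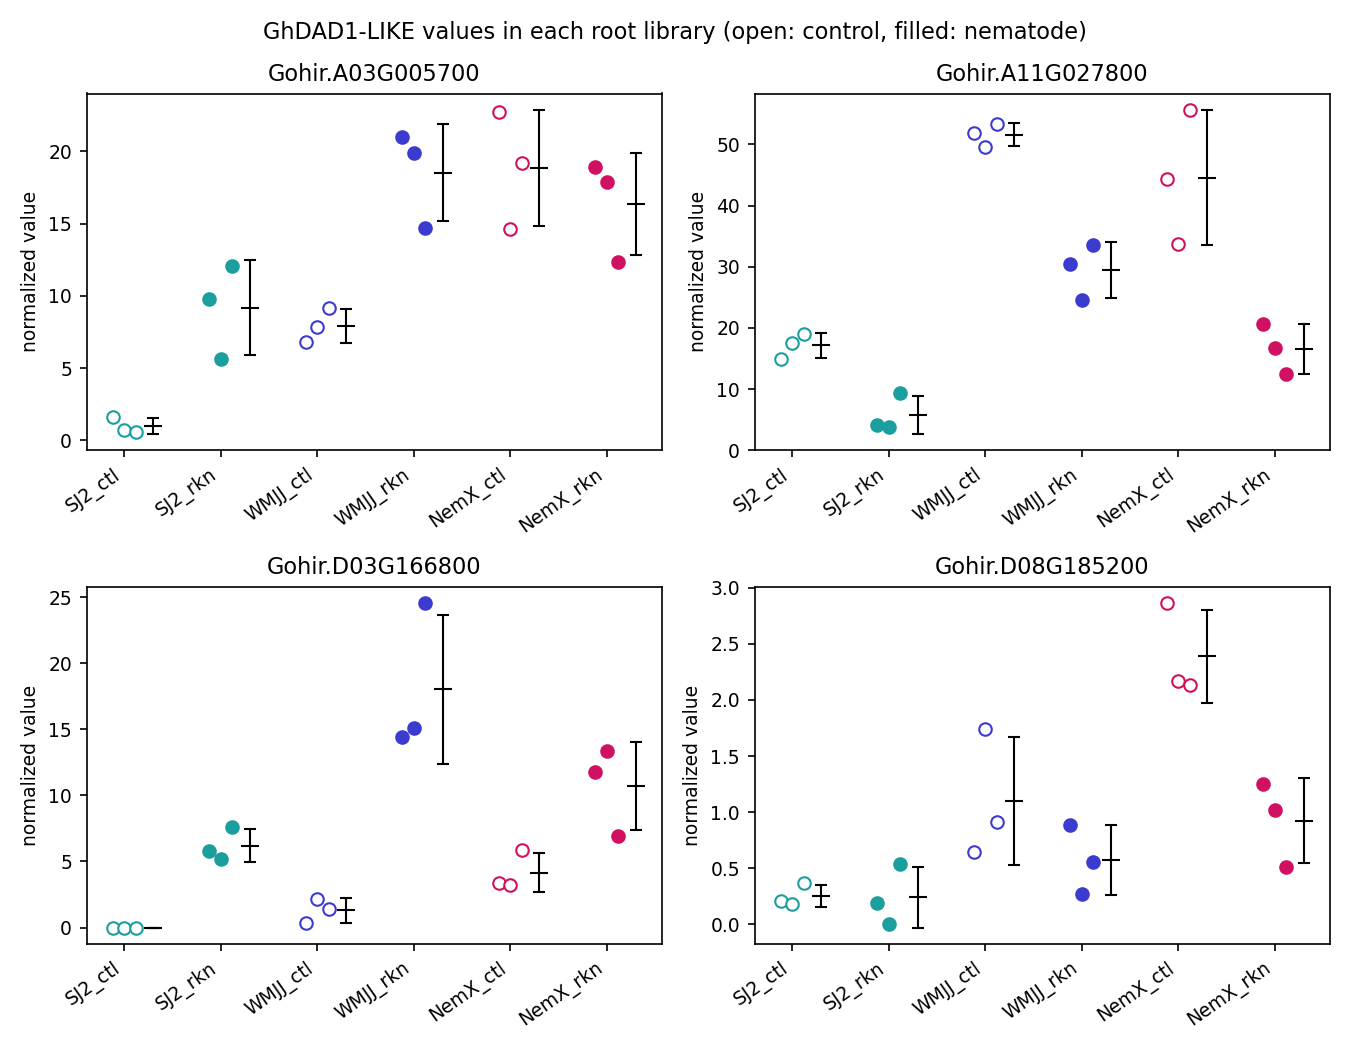
Expression of the 4 GhDAD1-LIKE genes in roots of SJ2, WMJJ and NemX, 1 panel per gene with its own vertical axis, in deposited normalized values (near counts scaled to a common library total). Open points are uninfested and filled points infested libraries, 3 per group, and the mark and bar beside them are the mean and SD. The panel of Gohir.A03G005700 has its lowest group in SJ2_ctl (mean 0.999), that of Gohir.A11G027800 drops from ctl to rkn in each genotype, and Gohir.D03G166800 is listed at 0 in the SJ2_ctl libraries.

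Gohir.A03G005700 was low in uninfested SJ2 and higher in the other 5 groups. In SJ2_ctl its values were 1.64, 0.739 and 0.619, worth about 8, 4 and 5 reads, and in SJ2_rkn they were 9.81, 5.63 and 12.1. The means were 0.999 ± 0.558 and 9.17 ± 3.27 (SD, n = 3), a 9.18-fold ratio of means, and the groups did not overlap. In WMJJ_ctl the libraries held 6.82, 7.85 and 9.15, and in WMJJ_rkn 20.9, 19.9 and 14.7, again without overlap, with a 2.33-fold ratio of means. In NemX_ctl the libraries held 22.7, 14.6 and 19.2, and in NemX_rkn 18.9, 17.9 and 12.3, so that the NemX groups overlapped. The NemX_ctl libraries also lay above every WMJJ_ctl library.

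In the limma fit it rose in infested SJ2 by 2.69 (log2, SE 0.28, adjusted p = 3.02e-07), the 523rd highest response of 46813 genes. The study chose its jasmonate genes for higher uninfested levels in NemX and WMJJ than in SJ2, and the low SJ2_ctl values that this favours are the baseline of each SJ2 response, so the p-values and ranks of rises in SJ2 are not independent of the choice. Gohir.A03G005700 rose in infested WMJJ by 1.16 (SE 0.28, adjusted p = 0.00423), in rank 2561. The difference in NemX was -0.20 (95% interval -0.78 to 0.39, adjusted p = 0.797). Of all tested genes, 8.09% were called higher in infested SJ2, 5.6% in infested WMJJ and 0.568% in infested NemX. The WMJJ call did not hold without WMJJ_ctl replicate 1 (1.07, adjusted p = 0.0243), WMJJ_ctl replicate 2 (1.16, 0.0145), WMJJ_rkn replicate 1 (1.07, 0.0254) or WMJJ_rkn replicate 2 (1.11, 0.0177), where fewer libraries also entered the fit.

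Gohir.D03G166800 was not detected in uninfested SJ2, and its infested libraries were higher in all 3 genotypes. In SJ2_ctl it was listed at 0 in the 3 libraries, in which 3 reads would be worth 0.371 to 0.614, and in SJ2_rkn it stood at 5.80, 5.18 and 7.60. In WMJJ_ctl it stood at 0.325, 2.18 and 1.39, worth about 1, 10 and 9.1 reads, and in WMJJ_rkn at 14.4, 15.1 and 24.5. In NemX_ctl the libraries held 3.34, 3.22 and 5.85, and in NemX_rkn 11.8, 13.4 and 6.95. No infested library overlapped the uninfested libraries of its own genotype.

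The fitted responses of Gohir.D03G166800 ranked high in the table. It rose in infested WMJJ by 3.48 (log2, SE 0.36, limma adjusted p = 6.28e-07), in rank 53 of 46813, which is a 13.9-fold ratio of means. With 0.1 added in place of 0.5 the WMJJ rise was 3.96, and with 1 it was 3.10, called in both fits. The SE rests on a spread shared by all groups, and the log2 SD was 0.87 in WMJJ_ctl but 0 in SJ2_ctl. Gohir.D03G166800 also rose in infested SJ2, with the same limit from the choice of genes, where the fitted 3.73 (SE 0.36, adjusted p = 1.29e-07) depends on the pseudocount because the controls are at 0, being 5.96 with a pseudocount of 0.1 and 2.83 with 1. No fold change is given for SJ2. In NemX the difference was 1.27 (SE 0.36, adjusted p = 0.0488), in rank 414, with a 2.59-fold ratio of means, and it was not called. Among the tested genes, 116 were at 0 in the 3 SJ2_ctl libraries, 19 of these were above 0 in every library of the other groups, and 3 of the 19, Gohir.D03G166800 included, reached at least 5 in every SJ2_rkn library.

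Gohir.A11G027800 had lower infested than uninfested libraries in each genotype, and no infested library overlapped the controls of its genotype. In SJ2_ctl the values were 15.0, 17.5 and 19.1 and in SJ2_rkn 4.17, 3.82 and 9.32. In WMJJ_ctl they were 51.8, 49.5 and 53.3 and in WMJJ_rkn 30.4, 24.5 and 33.5. In NemX_ctl they were 44.3, 33.7 and 55.7 and in NemX_rkn 20.6, 16.8 and 12.4. The infested mean was 0.336 of the control mean in SJ2, 0.572 in WMJJ and 0.373 in NemX.

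By limma, Gohir.A11G027800 fell in infested SJ2 (-1.59 on the log2 scale, SE 0.25, adjusted p = 5.89e-05) and in infested NemX (-1.40, SE 0.25, adjusted p = 0.00283). These were the 1234th and the 286th lowest responses of 46813 genes. The study's choice also favours high NemX_ctl and WMJJ_ctl values, the baselines of the falls there. The p-values and ranks of falls in NemX and WMJJ are therefore not independent of that choice. The WMJJ difference of -0.81 (SE 0.25, adjusted p = 0.0252) was not called. Of all tested genes, 5.92% were called lower in infested SJ2, 4.84% in infested WMJJ and 0.666% in infested NemX. The NemX call rests on few libraries. Without NemX_ctl replicate 1 it was -1.39 (adjusted p = 0.0146), without NemX_ctl replicate 3 -1.22 (0.0166), without NemX_rkn replicate 2 -1.42 (0.0119) and without NemX_rkn replicate 3 -1.21 (0.0253), and none of these passed the threshold of 0.01. It was also not called when the spread was estimated without a trend on level (0.0118) or from the compared libraries alone (0.0149).

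Gohir.D08G185200 was near the limit of detection in SJ2 and highest in uninfested NemX. Its values were 0.205, 0.185 and 0.370 in SJ2_ctl and 0.193, 0 and 0.537 in SJ2_rkn. They were 0.649, 1.74 and 0.914 in WMJJ_ctl and 0.889, 0.273 and 0.556 in WMJJ_rkn, with overlap. In NemX_ctl they were 2.86, 2.17 and 2.13, worth about 11, 9 and 14 reads, and in NemX_rkn 1.25, 1.02 and 0.507, worth about 8, 4 and 2 reads. The NemX groups did not overlap, and the other genotypes' groups did. When every gene in the table was tested with limma without the filter, the NemX difference was -1.05 (log2, SE 0.36, adjusted p = 0.114), and those of SJ2 (-0.08, adjusted p = 0.914) and WMJJ (-0.56, adjusted p = 0.306) were not called either. The limit from the choice of genes given for falls in NemX and WMJJ holds here too.

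**Figure D2:**
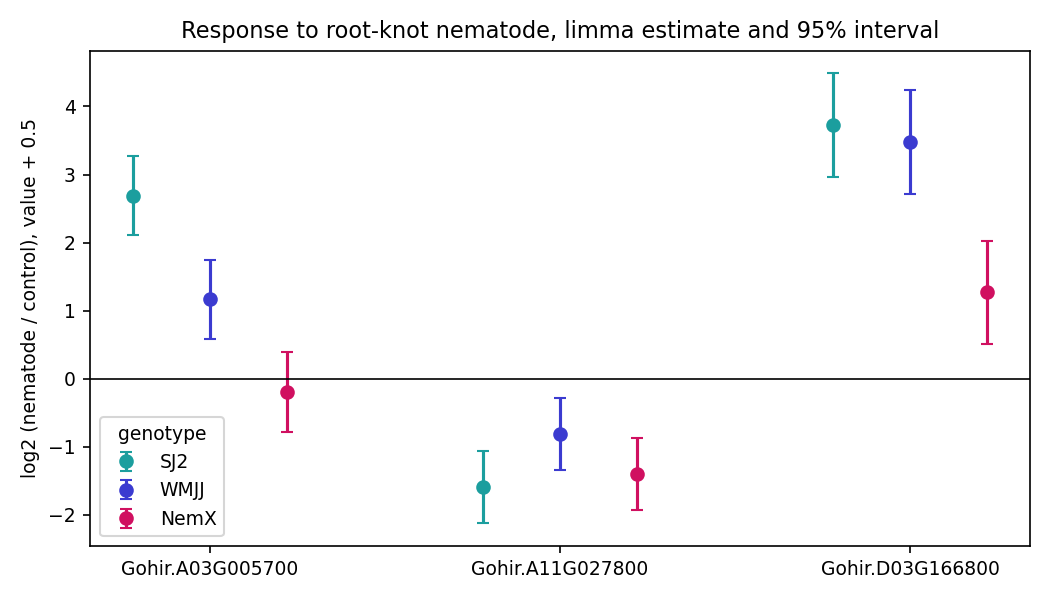
Response to the nematode of the 3 tested GhDAD1-LIKE genes in SJ2, WMJJ and NemX, as log2 fold change of infested over uninfested libraries on the scale of log2(value + 0.5). Points are fitted differences and bars their 95% intervals from limma, and the horizontal line marks no difference. Gohir.A03G005700 lies at 2.69, 1.16 and -0.20 and Gohir.D03G166800 at 3.73, 3.48 and 1.27, while Gohir.A11G027800 lies at -1.59, -0.81 and -1.40.

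Called responses therefore numbered 2 of 3 tested copies higher and 1 lower in SJ2, 1 lower in NemX, and 2 higher in WMJJ. The shares over all tested genes were 8.09% higher and 5.92% lower in SJ2, 0.666% lower in NemX and 5.6% higher in WMJJ. The limits from the choice of genes hold for the rises in SJ2 and the fall in NemX counted here. The median response of all tested genes was -0.04 in SJ2, -0.00 in WMJJ and -0.02 in NemX. Gohir.A03G005700 and Gohir.D03G166800 shared a set of calls, higher in SJ2 and WMJJ and not called in NemX, with 1284 genes in all, 2.74% of those tested. A missing call in NemX is not by itself a difference between genotypes, and the difference between responses was fitted as an interaction.

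A difference between the SJ2 response and another contains the uninfested difference that the study's choice used, so it is given as a description, with its 95% interval and no p. The fitted response of Gohir.A03G005700 in SJ2 less that in NemX was 2.89 (log2, SE 0.40, interval 2.06 to 3.71). That of Gohir.D03G166800 was 2.46 (SE 0.52, interval 1.38 to 3.54), and that of Gohir.A11G027800 was -0.20 (interval -0.94 to 0.55). Of all tested genes 5.22% were past the threshold in the positive direction, from which nothing is read for these genes. The value of Gohir.D03G166800 follows its controls at 0, being 4.61 with a pseudocount of 0.1 and 1.65 with 1, and it was 2.19 without NemX_rkn replicate 3 and 2.16 in the 12 libraries that do not stand apart. With 1, and in the last 2 of these fits, it was no longer past the threshold.

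The SJ2 response less the WMJJ response was 1.52 for Gohir.A03G005700 (interval 0.70 to 2.35) and -0.79 for Gohir.A11G027800 (interval -1.54 to -0.04), where 5.08% of all tested genes were past the threshold in either direction. None of the 3 tested copies was past it, although Gohir.A03G005700 was without SJ2_ctl replicate 1 (1.81) or SJ2_rkn replicate 2 (1.82). As with SJ2 less NemX, nothing is read from this for these genes. For Gohir.D03G166800 the pseudocount set both size and sign of this difference, at 0.24 with 0.5, 2.00 with 0.1 and -0.27 with 1, so no direction is given. The WMJJ response less the NemX response shares no library with SJ2 and was tested, although WMJJ_ctl and NemX_ctl both entered the study's choice. Its p-values are therefore not fully independent of that choice. The difference was 1.36 for Gohir.A03G005700 (limma adjusted p = 0.0585), 0.59 for Gohir.A11G027800 (adjusted p = 0.463) and 2.21 for Gohir.D03G166800 (adjusted p = 0.0172), none of them called, against 1.46% of all tested genes in either direction. The last was called without WMJJ_ctl replicate 2 (2.58, adjusted p = 0.00704) and with the term for the libraries that stand apart (2.21, adjusted p = 0.00547).

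Infested roots were then compared between genotypes, a comparison that shares no library with the study's choice of genes. That choice was nevertheless for higher levels in NemX and WMJJ than in SJ2, the same direction between the same genotypes. Shares of all tested genes are therefore not a like comparison for these copies over SJ2. Gohir.A11G027800 was higher in WMJJ_rkn than in SJ2_rkn by 2.35 (log2, SE 0.25, limma adjusted p = 1.32e-06), a 5.11-fold ratio of means and the 297th highest of 46813 genes. It was higher in NemX_rkn than in SJ2_rkn by 1.52 (SE 0.25, adjusted p = 3.98e-04), a 2.88-fold ratio of means, although with the spread taken from those libraries alone the adjusted p was 0.0149. Genes called higher made up 2.6% in WMJJ_rkn over SJ2_rkn and 2.88% in NemX_rkn over SJ2_rkn. So the copy that was lower after infestation still stood at 29.5 ± 4.58 in WMJJ_rkn and 16.6 ± 4.11 in NemX_rkn, against 5.77 ± 3.08 in SJ2_rkn (SD, n = 3).

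Of the copies that were higher after infestation, none was called between genotypes in infested roots. Gohir.A03G005700 differed by 1.02 between WMJJ_rkn and SJ2_rkn (log2, limma adjusted p = 0.0187) and by 0.84 between NemX_rkn and SJ2_rkn (adjusted p = 0.0530). Neither was called, though the libraries did not overlap, and the former was called without SJ2_rkn replicate 3 (1.24, adjusted p = 0.00900) and in the 12 libraries that do not stand apart (1.39, adjusted p = 0.00844). Gohir.D03G166800 differed by 1.44 between WMJJ_rkn and SJ2_rkn (adjusted p = 0.0108), near the threshold, and it was called without WMJJ_ctl replicate 1 (adjusted p = 0.00236), WMJJ_ctl replicate 2 (0.00630) or NemX_ctl replicate 3 (0.00953). Its NemX_rkn and SJ2_rkn libraries overlapped (0.71, adjusted p = 0.233).

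NemX_rkn and WMJJ_rkn did not differ past the threshold in any of the 3 tested copies. Of all tested genes 8.41% did in either direction, and at that share nothing is read from the lack of calls among 3 copies. The differences were -0.18 for Gohir.A03G005700 (95% interval -0.76 to 0.41, limma adjusted p = 0.719), -0.83 for Gohir.A11G027800 (-1.36 to -0.30, adjusted p = 0.0251) and -0.73 for Gohir.D03G166800 (-1.50 to 0.03, adjusted p = 0.178). The last 2 had NemX_rkn libraries that lay below every WMJJ_rkn library.

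In uninfested roots the levels in NemX and WMJJ over SJ2 are what the study's choice used, so they are given without a test. The 3 NemX_ctl libraries lay above every SJ2_ctl library in all 4 genes, and so did the WMJJ_ctl libraries. For 19.5% and 20% of the tested genes, respectively, the libraries were separated in that direction. The log2 differences of NemX_ctl over SJ2_ctl were 3.73 for Gohir.A03G005700, 1.33 for Gohir.A11G027800, 3.17 for Gohir.D03G166800 and 1.94 for Gohir.D08G185200. Those of WMJJ_ctl over SJ2_ctl were 2.54, 1.56, 1.69 and 1.04 in the same order. The values of Gohir.D03G166800 are over a group at 0 and follow the pseudocount, at 5.35 with 0.1 and 2.32 with 1 for NemX_ctl and at 3.50 and 1.11 for WMJJ_ctl. The ratio of means for NemX_ctl over SJ2_ctl was 18.9-fold for Gohir.A03G005700 and 2.60-fold for Gohir.A11G027800.

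NemX_ctl and WMJJ_ctl were both on the high side of that choice, and their difference was tested. Since both groups entered the choice, the p-values are not fully independent of it. The share of all tested genes is not a like comparison for these copies either. Gohir.A03G005700 was higher in NemX_ctl by 1.18 (log2, limma adjusted p = 0.00605) and Gohir.D03G166800 by 1.48 (adjusted p = 0.00818), while Gohir.A11G027800 differed by -0.24 (95% interval -0.77 to 0.29, adjusted p = 0.603). Of all tested genes 3.74% were called higher in NemX_ctl. Both calls lie near the threshold, and neither held in the 12 libraries that do not stand apart (1.26, adjusted p = 0.0158, and 1.35, adjusted p = 0.0699). That of Gohir.A03G005700 was lost without any of the 3 WMJJ_ctl libraries or NemX_ctl replicate 1 or 3, with differences of 1.04 to 1.28 and adjusted p of 0.0110 to 0.0348. That of Gohir.D03G166800 was lost without any NemX_ctl library, WMJJ_ctl replicate 1 or 3, or replicate 1 of SJ2_ctl, SJ2_rkn, WMJJ_rkn or NemX_rkn, with differences of 1.00 to 1.62 and adjusted p of 0.0102 to 0.0584.

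The order of the 6 groups differed between copies. For Gohir.A03G005700 it ran from SJ2_ctl to WMJJ_ctl and SJ2_rkn, which overlapped, and on to NemX_rkn, WMJJ_rkn and NemX_ctl, which also overlapped. For Gohir.A11G027800 it ran from SJ2_rkn to NemX_rkn and SJ2_ctl, which overlapped, then WMJJ_rkn, then NemX_ctl and WMJJ_ctl, which overlapped. For Gohir.D03G166800 SJ2_ctl and WMJJ_ctl were the lowest, NemX_ctl, SJ2_rkn and NemX_rkn overlapped in sequence, and WMJJ_rkn was the highest. Infested SJ2 was thus the lowest group of Gohir.A11G027800 and a middle group of Gohir.A03G005700 and Gohir.D03G166800.

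**Figure D3:**
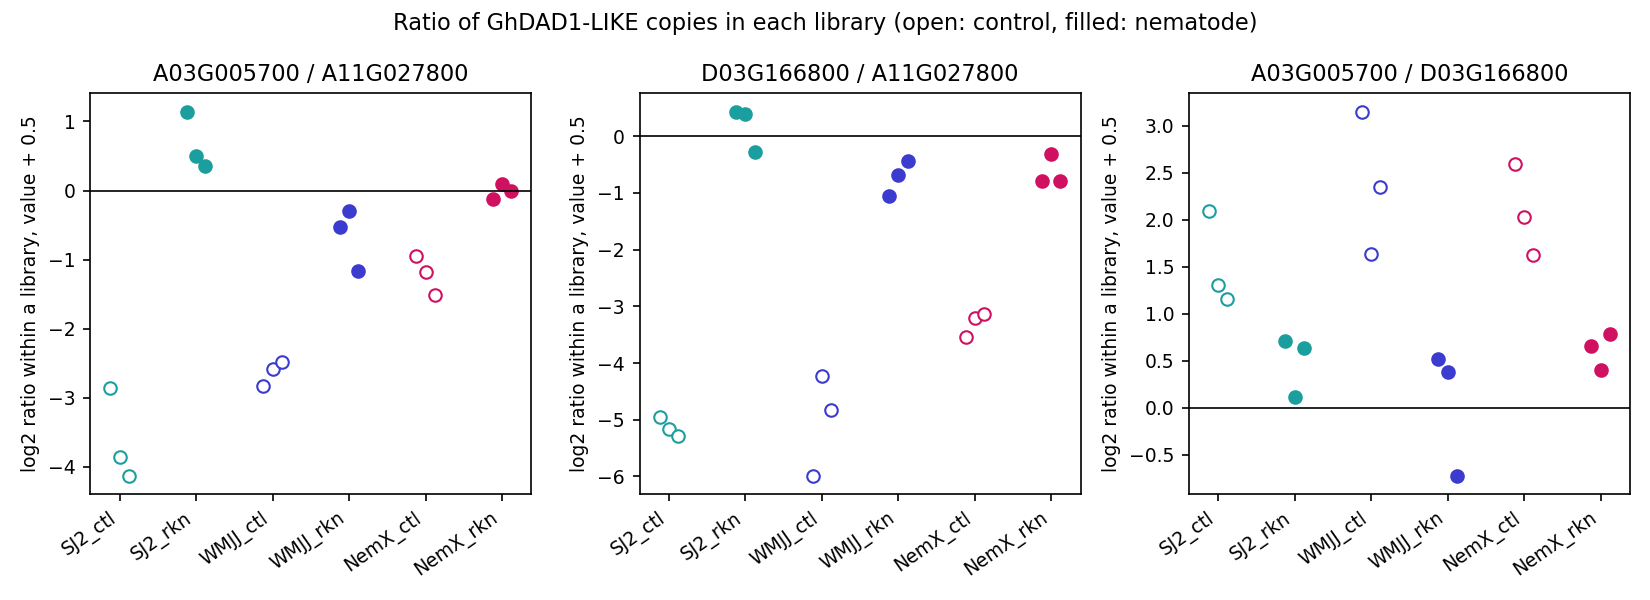
Balance between the GhDAD1-LIKE copies in each library, as the log2 ratio of 2 copies' values plus 0.5, in 3 panels. Each point is 1 library, open for uninfested and filled for infested, and the line marks equal values. Points of SJ2_ctl in the panels with Gohir.D03G166800 are set by the 0.5 added to its values of 0. The ratio of Gohir.A03G005700 to Gohir.A11G027800 is higher in every infested than in every uninfested library of the same genotype, with shifts of 4.28 in SJ2, 1.97 in WMJJ and 1.20 in NemX.

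Since the copies are read from the same libraries, their balance within a library was also calculated, as a description. The log2 ratio of Gohir.A03G005700 to Gohir.A11G027800 shifted with infestation by 4.28 in SJ2, 1.97 in WMJJ and 1.20 in NemX, and in no genotype did infested and uninfested libraries overlap. Ratios to Gohir.D03G166800 are not given for SJ2, where its controls at 0 leave the size of the shift to the pseudocount. The log2 ratio of Gohir.A11G027800 to Gohir.D03G166800 shifted by -4.29 in WMJJ and -2.66 in NemX, which the plot of ratios shows inverted, as a rise. The ratio of Gohir.A03G005700 to Gohir.D03G166800 shifted by -2.32 in WMJJ and -1.47 in NemX, without overlap. The ratio of Gohir.A11G027800 to Gohir.D08G185200 shifted by -1.52 in SJ2, without overlap, and by -0.24 in WMJJ and -0.35 in NemX, with overlap.

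**Figure D4:**
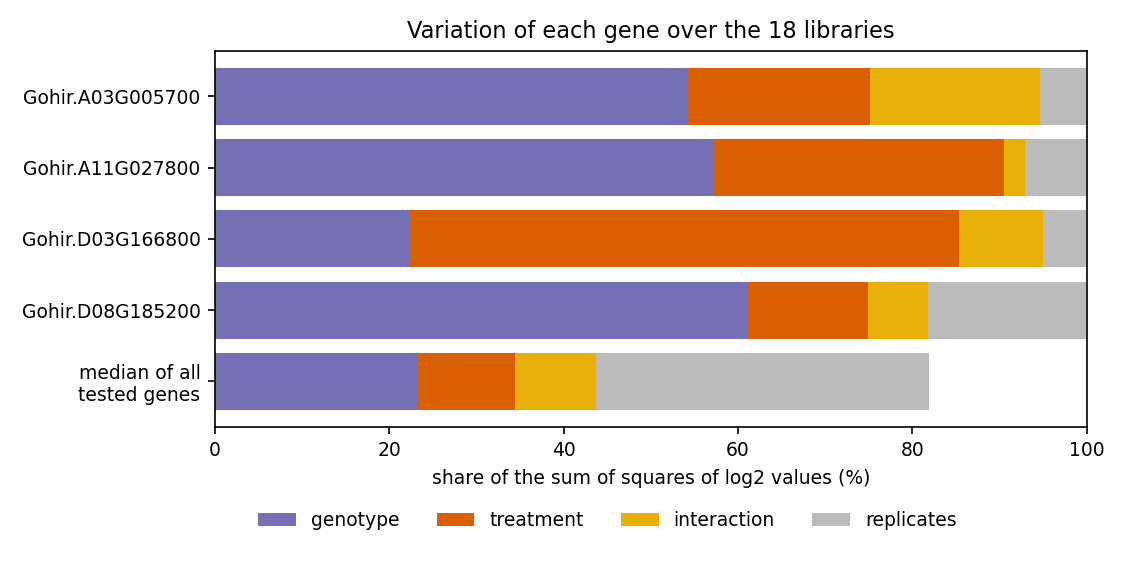
Percent of the variation of log2(value + 0.5) over 18 libraries that lies between genotypes, between treatments, in their interaction and between replicates, for the 4 GhDAD1-LIKE genes, 1 horizontal bar per gene. The bar for all tested genes stacks the median of each share, taken separately, so it ends short of the full width. Genotype takes 57.1% in Gohir.A11G027800 and treatment 63.1% in Gohir.D03G166800.

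The copies divided their variation differently. Treatment took 63.1% of the sum of squares of Gohir.D03G166800 and genotype 22.3%. For Gohir.A11G027800 genotype took 57.1%, treatment 33.4% and their interaction 2.34%. For Gohir.A03G005700 the shares were 54.2% for genotype, 20.9% for treatment and 19.6% for the interaction. Replicates took 4.97% to 7.12% in the tested copies and 18.3% in Gohir.D08G185200, where the median over tested genes was 38.1%. The genotype share includes the basal differences that the study's choice of genes used. That choice favours large differences between groups, and so a small share for replicates. The median over all tested genes is therefore not a like comparison for these copies. The shares of Gohir.D03G166800 also depend on the pseudocount, because its 3 SJ2_ctl libraries are listed at 0, with a log2 SD of 0.

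Over the 18 libraries the log2 levels of Gohir.A03G005700 and Gohir.D03G166800 had a Pearson r of 0.848, and those of Gohir.A11G027800 and Gohir.D08G185200 had 0.715. The r between Gohir.A03G005700 and Gohir.A11G027800 was 0.237, and between Gohir.A11G027800 and Gohir.D03G166800 -0.101. These are descriptions over libraries that share groups and depth.

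The genes with the most similar profiles were found by the same r over 18 libraries. Nearest to Gohir.A03G005700 were Gohir.A02G153900 (r = 0.967), Gohir.D11G119900 (0.963) and Gohir.D03G067400 (0.960). Gohir.A02G153900 went from a mean of 3.55 in SJ2_ctl to 22.6 in SJ2_rkn and was at 56.4 in NemX_ctl and 54.5 in NemX_rkn, with the NemX groups close to each other as in Gohir.A03G005700. Nearest to Gohir.D03G166800 were Gohir.D05G311800 (0.978), Gohir.A11G141000 (0.963) and Gohir.A11G006900 (0.962), and Gohir.D05G311800 went from 12.0 in WMJJ_ctl to 54.0 in WMJJ_rkn. Nearest to Gohir.A11G027800 were Gohir.A07G107000 (0.958), Gohir.A08G178800 (0.954) and Gohir.A06G076800 (0.951). Gohir.A07G107000 was at 61.5 in NemX_ctl and 26.0 in NemX_rkn. Nearest to Gohir.D08G185200 were Gohir.D06G140800 (0.930), Gohir.A02G016200 (0.917) and Gohir.A11G017200 (0.901). The sources used here give none of these genes a name.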

How the data were processed

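Per the labels and the study's methods, the authors checked paired-end reads with FastQC 0.11.9, trimmed them with Trimmomatic 0.39 and pseudo-aligned them with kallisto 0.46.1 to the transcript set of the cotton line TM-1, with values summed to genes. They deposited 1 table of normalized signal values for 54508 genes in 18 libraries. How the values were normalized is not given in the sources used here. Whole reads could not be recovered from them, so the planned count test was replaced by limma 3.58.1 in R 4.3.3 on log2(value + 0.5), for 46813 genes with a mean of at least 1 (7695 left out), with 1 coefficient per group, an intensity trend and Benjamini-Hochberg adjustment within each of 10 comparisons. The thresholds, adjusted p below 0.01 and log2 fold change above 1, are the study's. The code was tested on simulated data. Members, lists and comparisons were chosen with earlier results of these data known. Named genes are the 4 members and the 3 most correlated genes of each. The other genes of the pathway were not analysed here. No sequence is shown, since the reference table matched 0 of the table's identifiers.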

Additional observations from a re-analysis of the deposited data

Results flagged for a closer look

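Responses whose difference between genotypes passed the threshold in the limma fit were those of Gohir.A03G005700, 2.89 larger in SJ2 than in NemX on the log2 scale, and of Gohir.D03G166800, 2.46 larger. Both differences contain the uninfested difference between NemX and SJ2 for which the study chose its jasmonate genes, so no p is given. Neither they nor their passing of the threshold is evidence independent of that choice. In SJ2 the 3 infested libraries lay above the 3 uninfested libraries for both genes, and in NemX for Gohir.D03G166800 but not for Gohir.A03G005700. The SJ2_ctl libraries are listed at 0 for Gohir.D03G166800. Its difference was 1.65 with a pseudocount of 1 and 2.16 in the 12 libraries that do not stand apart, and neither passed. The difference of Gohir.A03G005700 was 2.57 in those 12 libraries.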

How the results depend on the processing

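No called result reversed its direction under an alternative, and 4 values that were not called did. SJ2 less WMJJ of Gohir.D03G166800 (0.24) was -0.27 with a pseudocount of 1 and -0.12 without WMJJ_ctl replicate 2, SJ2 less NemX of Gohir.A11G027800 (-0.20) was 0.020 without SJ2_rkn replicate 2, and NemX_rkn over WMJJ_rkn of Gohir.A03G005700 (-0.18) was 0.0064 without NemX_rkn replicate 3. The untested SJ2 difference of Gohir.D08G185200, near 0, also changed sign. Of the values under settings other than leaving out 1 library, 568 stayed on their side of the threshold or within replicate spread, 15 lost a call, 16 gained one and 12 untested values moved, and with 1 library left out 831 stayed, 23 lost a call and 7 gained one. The cause of the changes was not tested, beyond fewer libraries in the fits that left some out. With a pseudocount of 0.1, Gohir.A03G005700 and Gohir.D03G166800 lost NemX_ctl over WMJJ_ctl (1.22 and 1.85), Gohir.A03G005700 gained SJ2 less WMJJ (1.92), and their basal differences became 4.20 and 5.35 for NemX and 2.97 and 3.50 for WMJJ over SJ2. With 1, Gohir.D03G166800 gained WMJJ_rkn over SJ2_rkn (1.38), lost SJ2 less NemX (1.65), and its basal NemX difference was 2.32. Requiring a mean of 5 or more ended its NemX_ctl over WMJJ_ctl call (1.48). With equal totals, which shifts the median gene by -0.28 to -0.13 in 6 comparisons, the same call was lost by both genes (1.04 and 1.36), Gohir.D03G166800 gained WMJJ_rkn over SJ2_rkn (1.45), and the basal differences of Gohir.A11G027800 were 1.04 and 1.41. Quantile normalization added SJ2 less WMJJ for Gohir.A03G005700 (1.62) and WMJJ_rkn over SJ2_rkn for Gohir.D03G166800 (1.43). Without a trend the NemX_ctl over WMJJ_ctl calls (1.18 and 1.48) and the NemX response of Gohir.A11G027800 (-1.40) were lost.

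A fit on the compared libraries alone lost that NemX response (-1.40), NemX_rkn over SJ2_rkn of Gohir.A11G027800 (1.52) and NemX_ctl over WMJJ_ctl of Gohir.D03G166800 (1.48) and gained WMJJ_rkn over SJ2_rkn of Gohir.D03G166800 (1.44). A term for the library that stands apart in each group gained the latter (1.44) and its WMJJ less NemX difference (2.21). The other 12 libraries alone, an alternative chosen after seeing the data, gained WMJJ_rkn over SJ2_rkn (1.39) and lost NemX_ctl over WMJJ_ctl (1.26) for Gohir.A03G005700, and lost NemX_ctl over WMJJ_ctl (1.35) and SJ2 less NemX (2.16) for Gohir.D03G166800. A threshold of 0.05 added WMJJ_rkn over SJ2_rkn (1.02) and SJ2 less WMJJ (1.52) for Gohir.A03G005700, and the NemX response (1.27), WMJJ_rkn over SJ2_rkn (1.44) and WMJJ less NemX (2.21) for Gohir.D03G166800.

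Same-numbered deviations correlated at -0.224 to 0.442, so the labels' replicate numbers were not taken as pairs. The libraries that stand apart are replicate 3 in 5 groups and replicate 1 in NemX_rkn, and the pairs below 0 include NemX_rkn, apart from 1 at -0.0149. With a replicate block, SJ2 less WMJJ of Gohir.A03G005700 (1.52) was past the threshold, from which nothing is read. WMJJ_rkn over SJ2_rkn of Gohir.D03G166800 (1.44, limma adjusted p = 0.00836) was called in the same fit, and no other call changed.

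Leaving out 1 library at a time gave, for results whose call or sign changed, 1.07 to 1.32 (WMJJ response), 0.72 to 1.24 (WMJJ_rkn over SJ2_rkn), 1.04 to 1.35 (NemX_ctl over WMJJ_ctl), -0.33 to 0.0064 (NemX_rkn over WMJJ_rkn) and 1.30 to 1.82 (SJ2 less WMJJ) for Gohir.A03G005700, and -1.58 to -1.21 (NemX response) and -0.57 to 0.020 (SJ2 less NemX) for Gohir.A11G027800. For Gohir.D03G166800 it gave 1.21 to 1.59 (WMJJ_rkn over SJ2_rkn), 1.00 to 1.85 (NemX_ctl over WMJJ_ctl), 2.19 to 2.64 (SJ2 less NemX), -0.12 to 0.73 (SJ2 less WMJJ) and 1.73 to 2.58 (WMJJ less NemX). Depth limits Gohir.D08G185200, whose values in NemX rest on about 2 to 14 reads, and the low SJ2_ctl values of Gohir.A03G005700 and Gohir.D03G166800.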

Other observations

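The 3 genes with the nearest identifier numbers on each side of every copy, 24 in all with 22 tested, were read as a description. Their order on the chromosome was not checked. In infested SJ2, 1 was called higher and 3 lower of the 22, where 8.09% and 5.92% of all tested genes were, with Gohir.A03G005900 at -4.31, Gohir.D03G166600 at -4.03 and Gohir.A11G027500 at -1.93 on the log2 scale, while Gohir.D08G185600 stood at 3.01. The first 2 are neighbours of Gohir.A03G005700 and Gohir.D03G166800, whose own SJ2 responses had the opposite sign. In infested WMJJ 1 was called higher and 2 lower, where 5.6% and 4.84% of all tested genes were. In infested NemX limma called 0, where 0.568% of all tested genes were called higher and 0.666% lower, so nothing is read from the 0. Of the 22, 2 had an unadjusted p under 0.05, for which no share of all tested genes is given.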
